A study of Mus musculus with 48 samples.

Results

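Actins and tropomyosins are the proteins of the muscle thin filament and of the actin filaments in every cell's cytoskeleton, and 9 of their genes are described here in differentiating mouse muscle cells. They are the skeletal, cardiac and smooth muscle actin genes Acta1, Actc1 and Acta2, the cytoskeletal actin genes Actb and Actg1, and the tropomyosin genes Tpm1, Tpm2, Tpm3 and Tpm4. Every probe set whose only listed gene symbol was one of these was taken, which gave 25 of the 34958 probe sets with exactly 1 gene symbol and 9 of the 18194 genes they stand for. The 5 actin genes had 11 probe sets and the 4 tropomyosin genes had 14.

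The cells were C2C12, a mouse myoblast line that withdraws from division and fuses into multinucleated myotubes when serum is lowered, and RNA of the whole culture was measured on 48 short-oligonucleotide arrays, 3 in each of 16 groups. Cells in low-serum medium (DMEM with 2% horse serum) were collected at 12 times, 0.5, 1, 1.5, 2, 3, 6, 9, 12, 24, 48, 96 and 144 h after the change of medium. Another 2 groups, collected at 1 h and 3 h in low serum, also received 50 µM cycloheximide, a blocker of protein synthesis, from 1 h before the change, so they had 2 h and 4 h with the drug. The remaining 2 groups were undifferentiated cells in growth medium (DMEM with 20% FBS), collected at -24 h and at 0 h. No vehicle is named for the untreated cells. The 3 replicates of a group came from growths of successive passages of 1 cell line, and 3 arrays a group limit the precision of every value. The p-values below set a difference against the spread between such growths. That spread was estimated jointly over all 16 groups, except where only the arrays compared were fitted.

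Values are log2 intensities, so a difference of 1 is a doubling, and since each probe set binds its target differently, a higher reading of 1 probe set than of another does not say that its transcript is more abundant. Array medians lay between 4.003 and 4.157 on the 42 arrays without cycloheximide and between 4.201 and 4.241 on the 6 arrays with it, and arrays of a group correlated at 0.982 to 0.996 over the tested probe sets. Of 7 markers of skeletal myoblasts and myotubes, 5 read above 5 at -24 h and 7 at 0 h. Group means of Myod1, the myoblast regulator, lay between 9.14 and 10.86. Myog, the regulator of differentiation, averaged 5.64 at -24 h, 10.15 at 0 h and 12.46 at 144 h. Des lay between 10.21 and 12.05 and Chrna1 between 10.70 and 12.49. Myh3 and Ckm averaged 3.61 and 4.60 at -24 h, and 11.47 and 11.16 at 144 h. Myf5 went the other way, from 8.35 at 0 h to 5.85 at 144 h. Of 6 smooth muscle markers 4 read above 5 in every group, Tagln (group means 10.74 to 12.05), Smtn (7.12 to 8.23), Cnn1 (5.79 to 7.27) and Lmod1 (5.09 to 6.63), while the defining markers Myh11 (3.07 to 3.35) and Myocd (3.53 to 3.84) had group means below every array median. The mean of that list lay between 5.78 and 7.28 on single arrays. Of 4 adipocyte markers measured, Adipoq (2.93 to 3.16) was below every array median, Fabp4 read 3.67 to 4.15, Pparg 4.33 to 6.10 and Cebpa 5.62 to 8.95. The part of such cells in the results was not tested. Markers of dividing cells fell strongly over the course, with Mki67 at a mean of 6.17 at 144 h, 9.34 at 0 h and 10.43 at -24 h.

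Actin polymerises into filaments along which myosin pulls, and tropomyosin is a coiled coil that lies along the filament and, with troponin, gates myosin's access to it in striated muscle. Skeletal muscle forms its thin filaments from the striated actins, with the cardiac form used heavily in immature fibres and the skeletal form in mature ones, whereas the beta and gamma forms serve motility, adhesion and cell shape in nearly all cells. Each tropomyosin gene is spliced into several products, muscle and cytoskeletal ones among them, so probe sets of 1 gene can report different transcripts. Many actin and muscle genes are controlled by serum response factor, which binds a sequence called the CArG box and whose coactivators sense the pool of unpolymerised actin.

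RefSeq's table gave 9 windows for 8 of the 9 genes, all but Actb. The 250 bases before the annotated start are shown for the 3 actin genes whose window held a CArG box, because they belong to both classes compared here, 2 striated actins that rose and 1 cytoskeletal actin. The sequences are RefSeq's, build GRCm38.p6, 5′ to 3′ on the gene's strand and ending at the base before the start, with the CArG box in capitals. All 3 genes lie on the minus strand, Acta1 at chr8:123894776-123895025, Actc1 at chr2:114052876-114053125 and Actg1 at chr11:120348496-120348745.
Acta1: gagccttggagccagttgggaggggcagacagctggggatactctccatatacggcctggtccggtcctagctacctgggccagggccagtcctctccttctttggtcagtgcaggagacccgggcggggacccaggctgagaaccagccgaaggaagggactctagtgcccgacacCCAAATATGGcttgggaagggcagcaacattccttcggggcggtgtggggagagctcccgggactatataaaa
Actc1: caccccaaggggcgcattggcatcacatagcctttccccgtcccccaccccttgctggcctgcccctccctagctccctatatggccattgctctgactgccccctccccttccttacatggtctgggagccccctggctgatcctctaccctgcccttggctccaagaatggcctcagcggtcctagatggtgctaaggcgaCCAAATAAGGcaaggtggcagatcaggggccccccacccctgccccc
Actg1: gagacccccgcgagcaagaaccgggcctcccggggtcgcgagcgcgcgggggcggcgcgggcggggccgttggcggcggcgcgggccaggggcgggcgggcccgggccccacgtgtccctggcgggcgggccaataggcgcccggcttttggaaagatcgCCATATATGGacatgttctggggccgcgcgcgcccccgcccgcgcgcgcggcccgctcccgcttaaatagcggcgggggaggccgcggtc
The box lies 73 to 64 bases before the start of Acta1, 47 to 38 before that of Actc1 and 90 to 81 before that of Actg1. The box was searched as CCWWWWWWGG, where W is A or T. Of all 32851 mouse promoter windows of this length, 482 (1.47%) held this box on either strand. No box of exactly this pattern was found in the windows of Acta2, Tpm1, Tpm2, Tpm3 or Tpm4. Near matches with a G or C among the middle bases were not counted. The Acta2 window held such sequences, ccctatatgg and ccttgtttgg. Others were ccctatatgg, ccttacatgg and ccaagaatgg in the Actc1 window and ccatatacgg and ccttctttgg in the Acta1 window. A Tpm3 window held ccatgttagg. These are examples, and near matches were not listed in full for any window. The table's start is not always the gene's outermost: 212 of the 250 bases of the Acta2 window, 29 of the Tpm2 window and all 250 of the Tpm1 window and of 1 Tpm3 window lie inside the gene's annotated range, and sequence farther upstream was not searched. The M-CAT motif (CATTCC, either strand) was in the windows of Acta1, Acta2 and Tpm1 and in 12.6% of all windows, and an E-box (CANNTG) was in 66.2% of all windows. These matches describe the letters only.

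The striated actins rose most among the actins. Acta1 averaged 13.91 ± 0.16 at 144 h, against 9.83 ± 0.91 at 0 h (SD, n = 3 each), and Actc1 averaged 13.18 ± 0.15 at 144 h, against 9.67 ± 1.28 at 0 h. In cultures measured as a whole, more cells making a transcript and more transcript per cell cannot be told apart.

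Acta1 (probe set 1427735_a_at), the actin of adult skeletal muscle, had group means of 6.72, 9.83, 9.90, 10.39, 11.38, 11.95, 12.26, 13.42, 13.74, 13.77 and 13.91 at -24, 0, 1, 3, 6, 9, 12, 24, 48, 96 and 144 h. The 3 arrays at 144 h read 14.05, 13.95 and 13.74, against 10.79, 8.98 and 9.71 at 0 h. Every 144 h array stood above every 0 h array, and replicate 1 was the highest of the 3 at 0 h. The difference was 4.09 (SE 0.60, 17.0-fold; limma's moderated test with Benjamini-Hochberg adjustment over all probe sets, adjusted p = 1.09e-06). Ordered by mean over the 16 groups, -24 h was lowest and 144 h highest, and of the 15 pairs of neighbours in that order only 3 had arrays that did not overlap, which set -24 h below 0 h, 12 h below 24 h and 24 h below 48 h.

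Actc1 (1415927_at), the actin of heart and of immature skeletal muscle, had a similar course, with a correlation of 0.98 to Acta1 over the 16 group means. Its group means were 5.31, 9.67, 9.83, 10.39, 11.21, 11.81, 12.18, 13.06, 13.26, 13.18 and 13.18 at the same 11 times. The arrays read 13.35, 13.08 and 13.12 at 144 h, against 11.03, 8.48 and 9.51 at 0 h, and the groups did not overlap. The difference was 3.51 (SE 0.69, 11.4-fold, adjusted p = 0.000135). For neither striated actin did any of the steps 24 h against 12 h, 48 h against 24 h, 96 h against 48 h and 144 h against 96 h pass the test, with or without matched replicates. The spread in these tests is shared by all 16 groups, and early groups spread more than late ones. The SD at 0 h and 48 h was 0.91 and 0.09 for Acta1, and 1.28 and 0.01 for Actc1. An uncalled step therefore does not show equal levels.

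**Figure D1:**
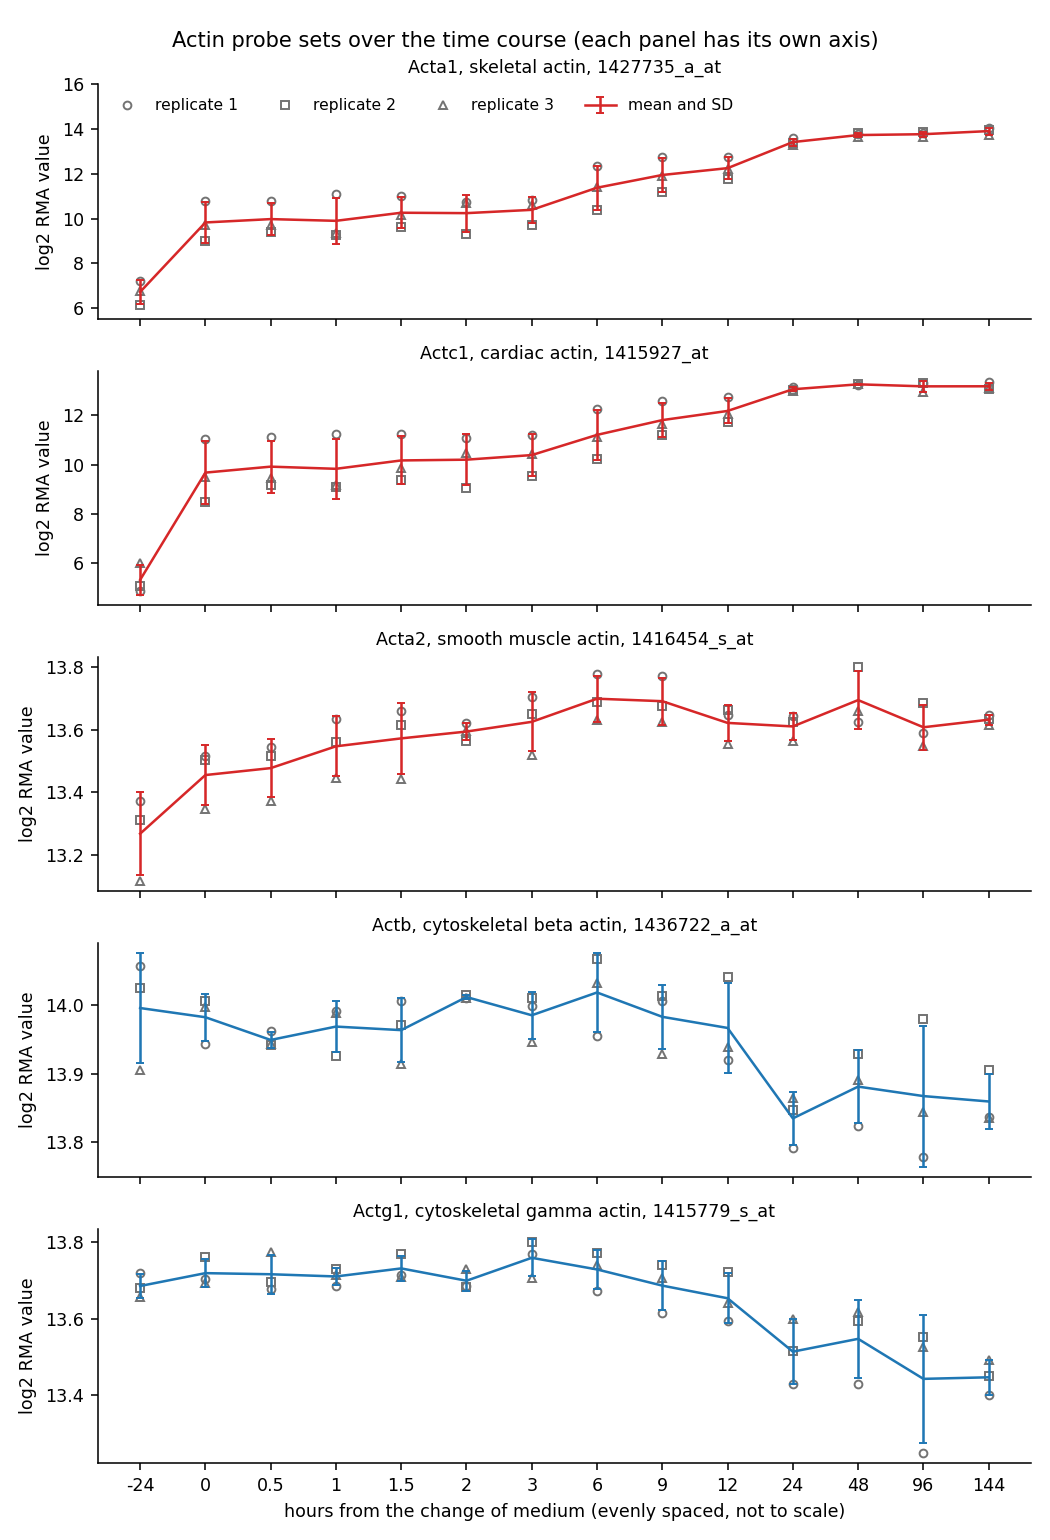
Log2 level of the lead probe set of each actin gene (vertical axis, a separate scale in each panel) by time from -24 h to 144 h. Points are single arrays and bars are the mean ± SD of 3. Acta1 and Actc1 run from means of 6.72 and 5.31 at -24 h to 13.91 and 13.18 at 144 h, while the group means shown span 13.27 to 13.70 for Acta2, 13.83 to 14.02 for Actb and 13.44 to 13.76 for Actg1.

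Much of the striated actin rise preceded the change of medium. Acta1 read 10.79, 8.98 and 9.71 at 0 h, against 7.23, 6.14 and 6.78 at -24 h, a difference of 3.11 (SE 0.60, adjusted p = 0.000316). Actc1 read 11.03, 8.48 and 9.51 at 0 h, against 4.87, 5.08 and 5.99 at -24 h, a difference of 4.36 (SE 0.69, adjusted p = 2.14e-05). The 2 groups did not overlap for either gene although both were in growth medium. These were the only members called at an adjusted p under 0.05, 2 of 25 probe sets, where 10.7% of all probe sets were called. Over the whole span, in the readings as deposited, Acta1 was higher at 144 h than at -24 h by 7.20 (147-fold, adjusted p = 1.72e-12) and Actc1 by 7.87 (234-fold, adjusted p = 7.37e-12). Acta1 came within 0.13 of the brightest probe set of an array and Actc1 read as low as 4.87 at -24 h, not far above the array medians; whether either end compresses these differences was not tested.

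The time at which the striated actins first passed the test depended on whether replicates were matched. Without matching, both were first called at 12 h, when Acta1 read 12.77, 11.79 and 12.21 and was higher than at 0 h by 2.43 (adjusted p = 0.023). Actc1 at 12 h read 12.74, 11.75 and 12.06 and was higher by 2.51 with an adjusted p of 0.05, just under the threshold. The Actc1 call did not pass under 5 of the other settings (adjusted p 0.0504 to 0.0749). Both calls were lost when 0 h replicate 2 or 3 or 12 h replicate 1 or 3 was left out, with adjusted p up to 0.196 for Acta1 and 0.335 for Actc1. With the replicate number as a block, Acta1 was called from 6 h (difference 1.55, adjusted p = 0.0159) and Actc1 from 9 h (2.13, adjusted p = 0.00336), and at 12 h the blocked adjusted p was 2.36e-05 for Acta1 and 0.000324 for Actc1. All of these comparisons share the 3 arrays at 0 h.

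Acta2, the smooth muscle actin, which myoblasts also make, read high before and after differentiation. Its lead probe set, the one with the highest mean of its gene (1416454_s_at), read 13.65, 13.63 and 13.62 at 144 h, against 13.52, 13.50 and 13.35 at 0 h. The groups did not overlap, and the difference of 0.18 had an adjusted p of 0.138. At 48 h it read 13.62, 13.80 and 13.66 and passed the test with a difference of 0.24 (adjusted p = 0.0366), a call lost without 0 h replicate 3 or 48 h replicate 2 (adjusted p up to 0.203) and also after quantile normalization (0.0708), with array-median centring (0.0509) and with only the arrays compared (0.163). Against -24 h, where it read 13.37, 13.31 and 13.12, the 144 h arrays were higher by 0.36 (adjusted p = 0.000732). This probe set lay within 0.39 to 0.98 of the brightest probe set on every array; whether its differences are compressed there was not tested. Actin coding sequences are near copies of each other, and the Acta2 lead and Actg1 probe sets carry the _s_at suffix that the array's maker gives to probe sets matching several transcripts, so signal of another actin in them cannot be told apart.

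The other Acta2 probe sets were dimmer. Probe set 1456658_at, which correlated at 0.03 with the lead over the 16 group means, had its highest group mean 0.5 h after the change of medium, with arrays at 5.24, 5.25 and 5.00, against 3.90, 3.997 and 4.26 at 0 h. The groups did not overlap, and the difference was 1.11 (SE 0.17, adjusted p = 0.000747). These 0 h readings lay around the array medians, where a reading may be background. It was the only member called at 0.5 h, 1 of 25, where 0.0429% of all probe sets were called. By 1 h its arrays read 4.72, 4.08 and 4.04 and the difference from 0 h did not pass the test. Probe set 1444105_at averaged 6.50 at 3 h and 6.47 at 6 h, against 5.11 at 0 h. It was not called without matching. With the replicate block it was first called at 1.5 h (1.11, adjusted p = 0.00666), and again at 3 h (0.000391) and 6 h (0.000571). Over the 16 group means 1444105_at correlated with the lead probe set at 0.80, a description of groups that share cells and arrays.

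The cytoskeletal actins read near the top of the scale, and their differences were small. The Actb lead lay within 0.019 to 0.45 of the brightest probe set on each array and Actg1 within 0.26 to 0.95. Whether their differences are compressed there was not tested. Actg1 (1415779_s_at), cytoskeletal gamma-actin, read 13.40, 13.45 and 13.49 at 144 h, against 13.70, 13.76 and 13.69 at 0 h. All 144 h arrays lay below all 0 h arrays, by a mean of -0.27 (SE 0.07, adjusted p = 0.0021), which was -0.04 and not called when each array was centred on 9 housekeeping genes (adjusted p = 0.705), nor with only the arrays compared (0.0845). At 96 h the difference was -0.28 (adjusted p = 0.00173, or 0.276 with that centring), at 48 h -0.17 (adjusted p = 0.0638, or 0.029 with the replicate block) and at 24 h -0.21 (adjusted p = 0.043). The 24 h call was lost on leaving out any array but 24 h replicate 3, with adjusted p up to 0.203.

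Actb, cytoskeletal beta-actin, had 5 probe sets, of which 3 are the array's own control probe sets for this gene. The lead probe set 1436722_a_at read 13.84, 13.91 and 13.83 at 144 h, against 13.94, 14.01 and 14.00 at 0 h; its difference of -0.12 was not called (adjusted p = 0.134) and became 0.11 after centring on the housekeeping genes. The control probe set for the middle of the transcript read 13.25, 13.38 and 13.24 at 144 h, against 13.53, 13.62 and 13.53 at 0 h, and its difference of -0.27 (adjusted p = 0.00494) was -0.03 and not called after that centring (adjusted p = 0.735), nor called with only the arrays compared (0.106). The control probe sets for the 3′ and 5′ ends differed by -0.14 (adjusted p = 0.0682) and -0.21 (adjusted p = 0.0763), and by 0.09 and 0.03 after centring. The 3′ probe set exceeded the 5′ one by 0.19 to 0.42 over all 48 arrays, with a mean of 0.36 at 144 h and 0.29 at 0 h. That centring moved the median of all probe sets at 144 h against 0 h to 0.26, where it was 0.02 in the deposited values, so the sign of a small cytoskeletal actin change depends on the scale.

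The fifth Actb probe set, 1419734_at, went the other way. It read 8.25, 7.93 and 7.27 at 96 h, against 6.58, 7.40 and 7.07 at 0 h; the groups overlapped, and the difference of 0.80 had an adjusted p of 0.0429, which rose to as much as 0.213 when 0 h replicate 1 or 3 or 96 h replicate 1 or 2 was left out, and was 0.0531 with array-median centring and 0.0835 with only the arrays compared. Over 16 group means it correlated at -0.65 with the Actb lead probe set, whereas the 3 control probe sets correlated with it at 0.95 to 0.97.

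Set against each other within an array, the muscle actins gained on the cytoskeletal ones. The mean change of the Acta1, Acta2 and Actc1 lead probe sets from their 0 h means, minus that of Actb and Actg1, was taken on every array. Over -24, 12, 24, 48, 96 and 144 h its group means were -2.54 ± 0.26, 1.74 ± 0.39, 2.56 ± 0.15, 2.72 ± 0.08, 2.73 ± 0.18 and 2.79 ± 0.13 (SD, n = 3 each). At 144 h the muscle actins had changed by 2.59 and the cytoskeletal ones by -0.20. The 0 h arrays themselves ran from -0.70 to 0.82 on this scale, with replicate 1 highest. With the striated actins alone the difference was 3.998 at 144 h and -3.73 at -24 h. A ratio within an array shows unequal change and does not say which of the 2 kinds is more abundant, and it rests on readings near the top of the scale.

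**Figure D2:**
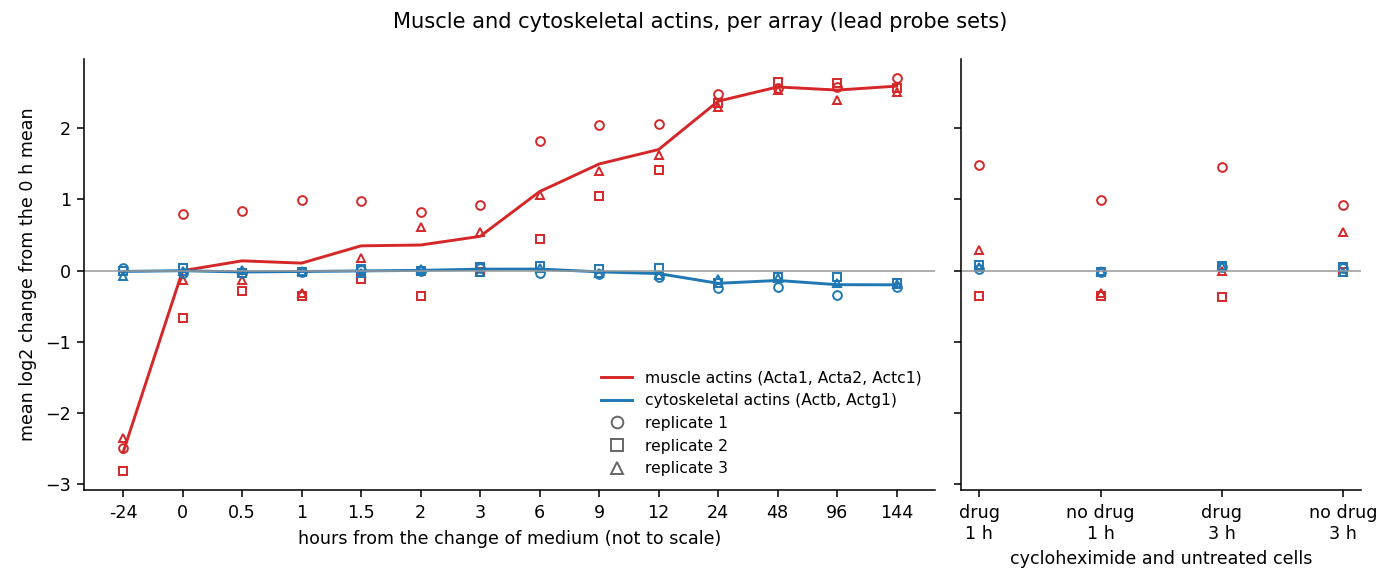
Mean log2 change from the 0 h mean of the muscle actin lead probe sets (Acta1, Acta2 and Actc1, red) and of the cytoskeletal ones (Actb and Actg1, blue). Each point is 1 array with a symbol for its replicate number; the left panel runs over time and the right panel sets cycloheximide beside no drug at 1 h and 3 h. The red points run from -2.55 at -24 h to 2.59 at 144 h on average, and the blue ones from -0.01 to -0.20, a difference that becomes smaller or changes sign when arrays are centred on housekeeping genes.

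The tropomyosins divided by probe set as much as by gene, as described probe set by probe set below. The counts given first cover all members together, 11 actin and 14 tropomyosin probe sets. At 144 h against 0 h, 15 of the 25 member probe sets were called, 9 higher and 6 lower. Of all probe sets 24.1% were called, 11.2% higher and 12.9% lower. By lead probe set 3 of the 9 genes were higher and 3 lower, where 13.1% of all genes were higher and 14.5% lower. After centring on the housekeeping genes 12 were higher and 4 lower, where 39.3% of all probe sets were higher and 7.75% lower. The median difference over the 25 was 0.17, against 0.02 over all probe sets. At 24 h the counts were 9 higher and 3 lower, where 11.2% of all probe sets were called, 5.08% higher and 6.08% lower. At 48 h they were 10 and 3, where 22.6% were called, 10.1% higher and 12.5% lower. At 96 h they were 10 and 8, where 28.1% were called, 12.8% higher and 15.4% lower. Under housekeeping centring they were 11 and 2 at 24 h (16.4% and 3.63% of all probe sets), 11 and 0 at 48 h (19.8% and 8.52%) and 12 and 2 at 96 h (34.2% and 10.7%). Under centring on the array median the 48 h split was 9 and 6 (9.35% and 12.7%).

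Tpm1, whose main muscle product binds troponin in fast and cardiac fibres, rose in its lead probe set 1423049_a_at. That probe set read 13.15, 13.03 and 12.78 at 144 h, against 11.77, 11.62 and 11.37 at 0 h. No 144 h array overlapped the 0 h arrays, replicate 3 was lowest in both groups, and the difference was 1.40 (SE 0.18, adjusted p = 6e-08). It was first called at 24 h (0.98, adjusted p = 0.000169), and with the replicate block at 6 h (0.45, adjusted p = 0.00387). Between 24 h and 12 h it differed by 0.52 and between 48 h and 24 h by 0.30, steps that were called only with the block (adjusted p = 0.000239 and 0.0331).

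A second Tpm1 probe set, 1447713_at, started below the array medians, where a reading may be background. It read 5.44, 6.16 and 5.43 at 144 h, against 3.21, 2.96 and 2.86 at 0 h, a difference of 2.66 between these readings (SE 0.17, adjusted p = 3.81e-15), and like the lead it was first called at 24 h. Its largest step among those tested was at 48 h against 24 h, where it read 5.00, 5.32 and 5.09 at 48 h, against 3.46, 3.80 and 4.09 at 24 h (1.35, adjusted p = 1.67e-06). The step between 96 h and 48 h was 0.60 (adjusted p = 0.0432), and was lost when 48 h replicate 1 or 3 or 96 h replicate 1 or 2 was left out (adjusted p up to 0.308), and with only the arrays compared (0.306).

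Another pair of Tpm1 probe sets did not rise. Probe set 1423721_at read 11.20, 11.29 and 11.20 at 144 h, against 11.62, 11.62 and 11.44 at 0 h. The 144 h arrays lay below the 0 h arrays, by -0.33 with an adjusted p of 0.0581, and by -0.10 after housekeeping centring. It was called lower at 48 h (-0.35, adjusted p = 0.0483) and 96 h (-0.34, adjusted p = 0.0469), calls that several single arrays decided (adjusted p up to 0.362 on leaving 1 out) and that housekeeping centring ended (0.208 and 0.309). Over 16 group means it correlated with the Tpm1 lead at -0.62, against 0.92 for 1447713_at. Probe set 1456623_at was called at 96 h alone, with 6.09, 5.96 and 5.98, against 6.61, 6.59 and 6.82 at 0 h (-0.67, adjusted p = 0.0407), and leaving out any 1 of these 6 arrays ended the call (adjusted p 0.0587 to 0.138).

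**Figure D3:**
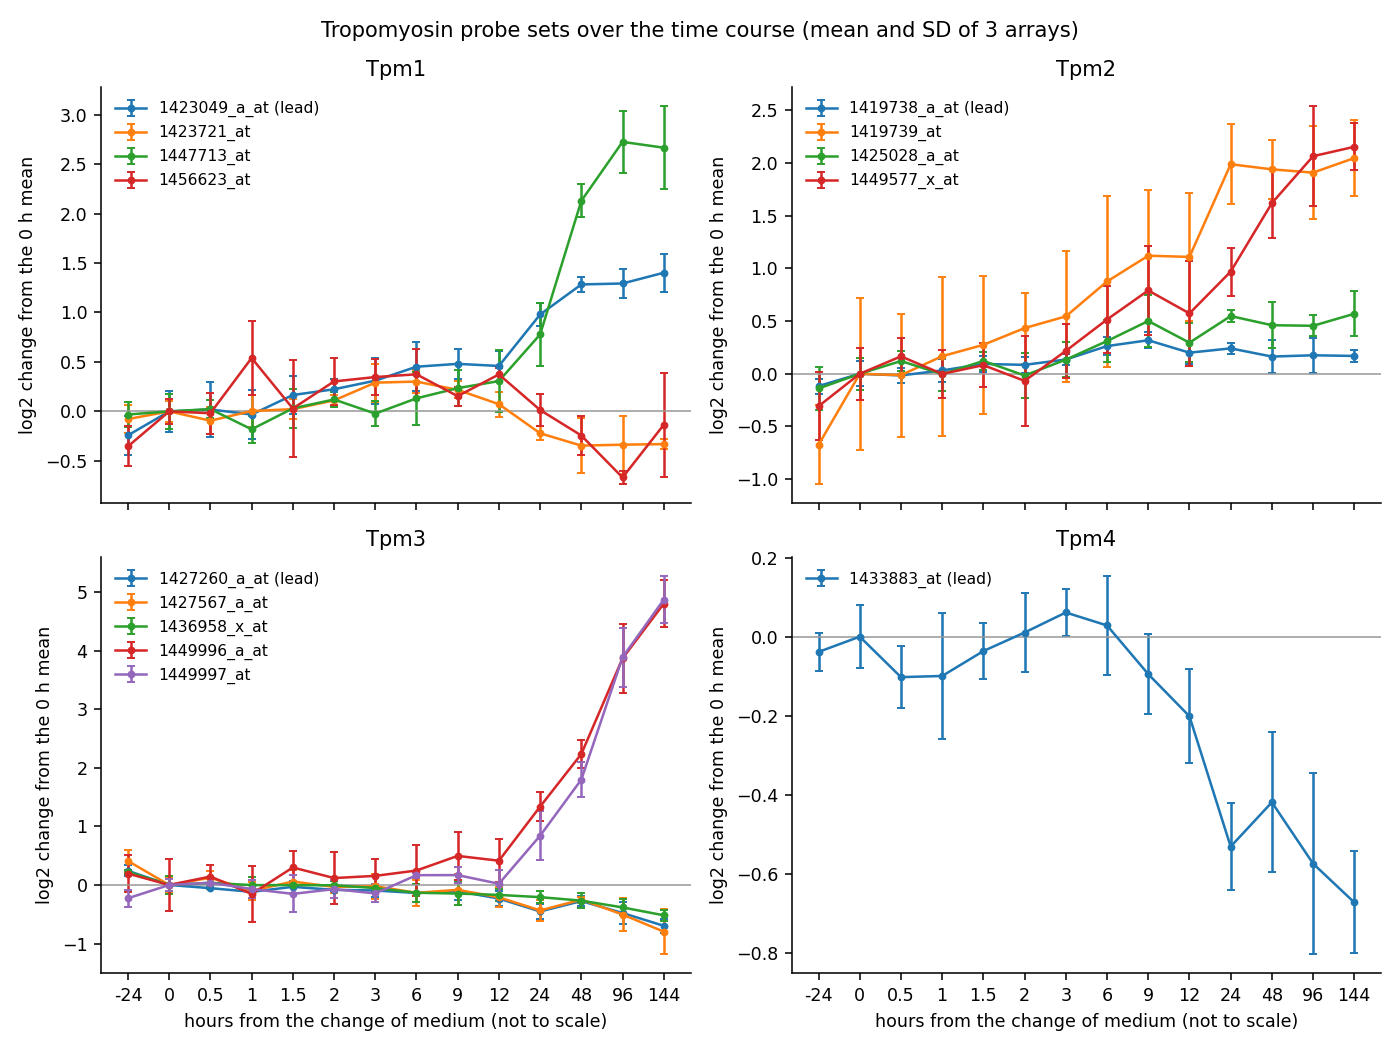
Mean log2 change from the 0 h mean of every tropomyosin probe set (vertical axis) by time, 1 panel per gene, with the SD of 3 arrays as bars. Probe sets of Tpm3 end at 144 h between 4.87 and -0.80 and those of Tpm1 between 2.66 and -0.33, so lines of both genes end on either side of 0, but no Tpm1 probe set was called lower at 144 h (the -0.33 is -0.10 under housekeeping centring); the Tpm2 lines end at 0.17 to 2.15 and the single Tpm4 line at -0.67.

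Tpm2, which encodes a skeletal muscle beta-tropomyosin and a form found in fibroblasts and smooth muscle, changed least in its brightest probe set. The lead 1419738_a_at read 12.16, 12.27 and 12.24 at 144 h, against 12.16, 12.07 and 11.93 at 0 h, overlapping groups with a difference of 0.17 (adjusted p = 0.18). Probe set 1449577_x_at read 11.64, 12.03 and 11.66 at 144 h, against 9.79, 9.74 and 9.34 at 0 h, a difference of 2.15 (SE 0.25, adjusted p = 1.23e-08). All its 144 h arrays were above all its 0 h arrays. Over 16 group means 1449577_x_at correlated at 0.97 with the Tpm1 lead and 0.94 with Tpm3 1449996_a_at. With the Tpm2 lead it correlated at 0.57, with 1425028_a_at at 0.86 and with 1419739_at at 0.91. Whether it carries signal of another tropomyosin gene was not tested.

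The remaining Tpm2 probe sets rose as well. Probe set 1419739_at read 9.74, 9.54 and 9.05 at 144 h, against 8.19, 7.21 and 6.78 at 0 h, a difference of 2.05 (SE 0.48, adjusted p = 0.00114), and had reached 1.99 by 24 h. Probe set 1425028_a_at read 11.43, 11.76 and 11.83 at 144 h, against 11.21, 11.16 and 10.93 at 0 h, a difference of 0.57 (adjusted p = 0.00199). Without 0 h replicate 3, the lowest of its group, 1425028_a_at was no longer called at 24 h (adjusted p 0.0706). Correlations among the 4 Tpm2 probe sets over 16 group means ran from 0.57 to 0.91.

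Tpm3 held the widest spread between probe sets of 1 gene at 144 h. Its products include the slow skeletal muscle tropomyosin and several cytoskeletal tropomyosins. The probe sets 1449996_a_at and 1449997_at rose by 4.80 (SE 0.29, 27.9-fold, adjusted p = 8.05e-16) and 4.87 (SE 0.20, 29.2-fold, adjusted p = 8.49e-21) at 144 h against 0 h. Its other 3 probe sets fell, the lead by -0.70 (SE 0.11, adjusted p = 3.74e-06).

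Probe set 1449997_at had group means of 5.20, 5.22, 6.04, 7.00, 9.09 and 10.07 at 0, 12, 24, 48, 96 and 144 h. It read 10.40, 10.18 and 9.63 at 144 h, against 5.32, 5.14 and 5.15 at 0 h, groups that lie far apart. The largest step tested was that at 96 h, with 9.66, 8.76 and 8.84, against 48 h, with 7.34, 6.90 and 6.76 (2.09, adjusted p = 3.53e-09). With only the 6 arrays compared, this step did not pass (adjusted p = 0.0608).

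The steps of 1449997_at at 24 h against 12 h (0.82, adjusted p = 0.0298), 48 h against 24 h (0.96, adjusted p = 0.00321) and 144 h against 96 h (0.98, adjusted p = 0.0139) passed too, and each of them also failed with only the arrays compared (0.08, 0.0888 and 1). The first was lost without 12 h replicate 2 or 3 or 24 h replicate 1 (adjusted p up to 0.391), the second without 48 h replicate 1 (0.0705), and the last, whose groups overlapped, without 96 h replicate 2 or 3 or 144 h replicate 1 or 2 (up to 0.178). Between neighbouring late times the members called were 1 of 25 at 24 h against 12 h (0.87% of all probe sets called), 2 at 48 h against 24 h (2.66%), 3 at 96 h against 48 h (3.39%) and 1 at 144 h against 96 h (0.22%). With the replicate block 5 were called at 24 h against 12 h, where 2.61% of all probe sets were, and 5 at 48 h against 24 h, where 5.82% were.

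Probe set 1449996_a_at followed the same course, with 11.15, 10.96 and 10.38 at 144 h, against 6.49, 6.01 and 5.60 at 0 h. The pair correlated at 0.99 over 16 group means. Its step at 96 h against 48 h was 1.63 (adjusted p = 0.000403, or 0.114 with only the arrays compared).

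The lead Tpm3 probe set 1427260_a_at ran the opposite way. It read 10.94, 11.18 and 11.08 at 144 h, against 11.78, 11.76 and 11.74 at 0 h, with all 144 h arrays lower, and the fall remained -0.46 after housekeeping centring. At -24 h it had read 12.04, 12.07 and 11.90, and 144 h against -24 h gave -0.94 (adjusted p = 6.1e-09). Its correlation over 16 group means was -0.82 with 1449996_a_at and 0.93 with 1427567_a_at, which fell by -0.80 at 144 h (adjusted p = 0.000233). The fifth, 1436958_x_at, fell by -0.52 (adjusted p = 7.89e-05). Which Tpm3 transcript each probe set binds was not determined here.

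Tpm4, a cytoskeletal tropomyosin, fell in its 1 probe set, 1433883_at. It read 11.74, 11.60 and 11.86 at 144 h, against 12.32, 12.40 and 12.48 at 0 h. The groups did not overlap, and the difference was -0.67 (SE 0.10, adjusted p = 2.4e-06), or -0.44 after housekeeping centring. It was already lower at 24 h (-0.53, adjusted p = 0.000422), when its arrays read 11.76, 11.88 and 11.98, and at 96 h by -0.57 (adjusted p = 3.58e-05). At 48 h it was called lower too, but not after housekeeping centring (-0.30, adjusted p = 0.0694).

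The markers of dividing cells fell over the same period as Tpm4 and the falling Tpm3 probe sets. The mean level of the list, 3 of 4 markers measured, was 6.59 to 7.17 on the 144 h arrays, against 9.51 to 9.76 on the 0 h arrays. The part of dividing cells in these falls, and in the smaller Actb and Actg1 differences, was not tested.

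**Figure D4:**
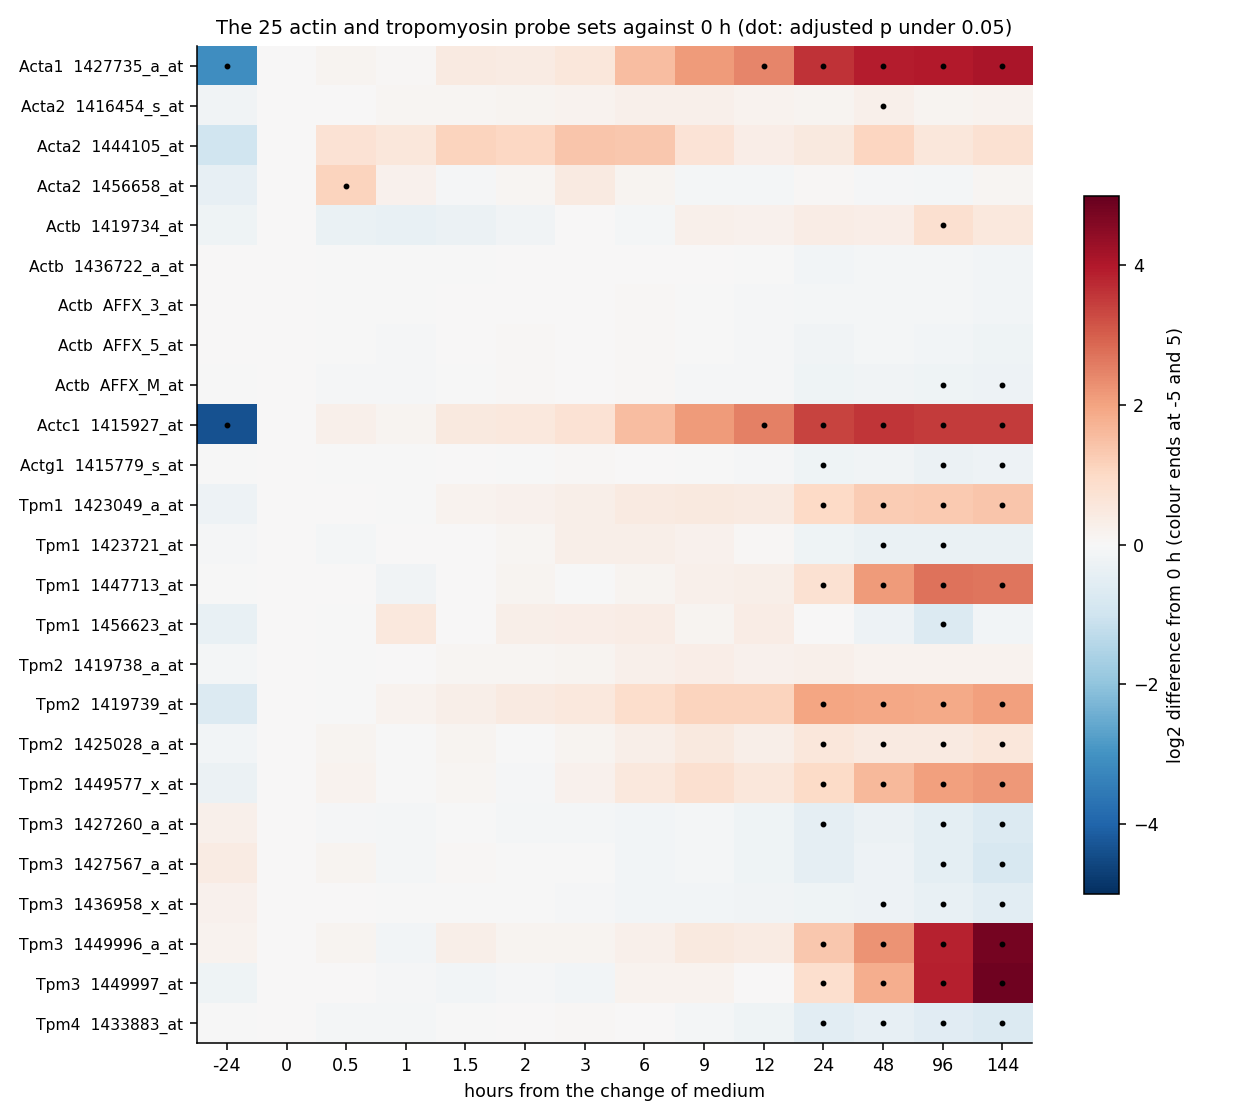
Heat map of the log2 difference from the 0 h mean for the 25 member probe sets (rows) at 14 times (columns, -24 h to 144 h), with colours ending at 5 on either side. Dots mark an adjusted p under 0.05; the dot in the -24 h column stands for the test of 0 h against -24 h, and AFFX stands for the Actb control probe sets. The dots gather from 24 h on, 12 of 25 at 24 h and 15 of 25 at 144 h; the small late differences of Actb and Actg1 shrink or change sign under housekeeping centring.

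In the first 9 h few members passed the test without matched replicates. By limma, 0 of 25 were called at 1 h, 1.5 h, 2 h, 3 h, 6 h and 9 h, where 0.123%, 0.295%, 0.366%, 0.349%, 0.352% and 0.875% of all probe sets were called. At an unadjusted p under 0.05 there were 1, 1, 1, 3, 9 and 8, where 5.6%, 9.54%, 6.9%, 6.71%, 6.99% and 9.09% of all probe sets were. With the replicate block, at the times whose numbers pair the arrays with 0 h, 1, 1, 5 and 8 were called at 1.5, 3, 6 and 9 h, where 0.904%, 1.25%, 1.62% and 2.76% of all probe sets were. At 12 h the 2 called were the striated actins (1.78% of all probe sets called), and with the block 5 were called (4.3%). Over the 12 differentiation times together, limma's F-test called 20 of the 25 (33.3% of all probe sets). The 5 others were 2 of Acta2 and 3 of Actb.

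Against -24 h, 20 of the 25 were called at 144 h, 13 higher and 7 lower, where 31.3% of all probe sets were called, 14.8% higher and 16.5% lower. After housekeeping centring 15 were higher and 4 lower (57.8% and 9.65% of all probe sets), and Actg1 turned from -0.24 (adjusted p = 0.00539) to 0.066. For Actb, the lead probe set turned from -0.14 to 0.17, and the control probe sets for the 3′ end and the middle from -0.15 and -0.25 to 0.16 and 0.057. The striated actins, the rising Tpm1, Tpm2 and Tpm3 probe sets and the falling Tpm4 kept their direction.

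Few members passed the test with cycloheximide. At 1 h 0 of 25 were called by limma, where 23.1% of all probe sets were called and 2 members had an unadjusted p under 0.05, where 36.3% of all probe sets had. At 3 h 2 of 25 were called, both lower with the drug, where 31.8% of all probe sets were called, 28.4% higher and 3.35% lower, and 4 with the block, where 37.8% were. The drug arrays carried a higher general level: the median difference of all probe sets was 0.20 at 1 h and 0.17 at 3 h, and it was -0.06 and -0.10 after centring on the array median. The members' medians were 0.11 and -0.06. After that centring 3 members were called at 1 h, where 10.5% of all probe sets were called in either direction, and 15 at 3 h, where 27.7% were. These 15 members were all lower with the drug. By lead probe set, 12.2% of all genes were higher and 16.6% lower at 3 h under that centring.

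The members lower with cycloheximide at 3 h were a probe set of Acta2 and one of Tpm3. Acta2 1456658_at read 3.60, 3.55 and 3.51 with cycloheximide at 3 h, against 4.67, 4.53 and 4.27 without. The drug arrays were all lower, by -0.94 (SE 0.17, adjusted p = 3.94e-05). These drug readings lay below every array median, the cycloheximide ones being 4.201 to 4.241, and may be background. At 1 h the same probe set read 4.90, 4.43 and 3.99 with the drug, against 4.72, 4.08 and 4.04 without, an uncalled 0.17 that turns negative under the other 3 scalings. The effect at 3 h minus that at 1 h was -1.10 (SE 0.24, adjusted p = 0.004), the only member of 25 called in that test (3.25% of all probe sets). It did not pass with only the arrays compared (adjusted p = 0.122).

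Tpm3 1427567_a_at read 8.53, 8.72 and 8.59 with cycloheximide at 3 h, against 9.25, 9.41 and 8.99 without, again with no overlap (-0.60, SE 0.16, adjusted p = 0.0044). The Acta2 probe set 1444105_at read 6.00, 5.25 and 4.62 with the drug at 3 h, against 7.34, 6.42 and 5.74 without. Those groups overlapped, but each drug array was below its same-numbered untreated array. The difference of -1.21 had an adjusted p of 0.0527, and of 4.72e-05 with the replicate block; at 3 h the replicate numbers pair the arrays. Tpm4 differed by -0.19 at 3 h (adjusted p = 0.15, or 0.0355 with the block).

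The striated actins showed no called difference with the drug, and their replicates spread widely. Acta1 read 11.96, 9.27 and 10.32 with cycloheximide at 1 h, against 11.08, 9.25 and 9.37 without, and 11.86, 9.30 and 9.91 with it at 3 h, against 10.83, 9.73 and 10.61 without. Actc1 read 11.73, 8.98 and 9.62 with the drug at 3 h, against 11.20, 9.52 and 10.44 without. Replicate 1 was the highest in each of these groups, and in replicates 2 and 3 both genes were lower with the drug at 3 h, in replicate 1 higher. The muscle minus cytoskeletal actin change averaged 0.42 ± 0.96 with the drug at 1 h, against 0.12 ± 0.77 without, and 0.30 ± 0.97 with it at 3 h, against 0.46 ± 0.49 without (SD, n = 3 each). Without drug replicate 1 it was -0.09 at 1 h and -0.25 at 3 h.

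**Figure D5:**
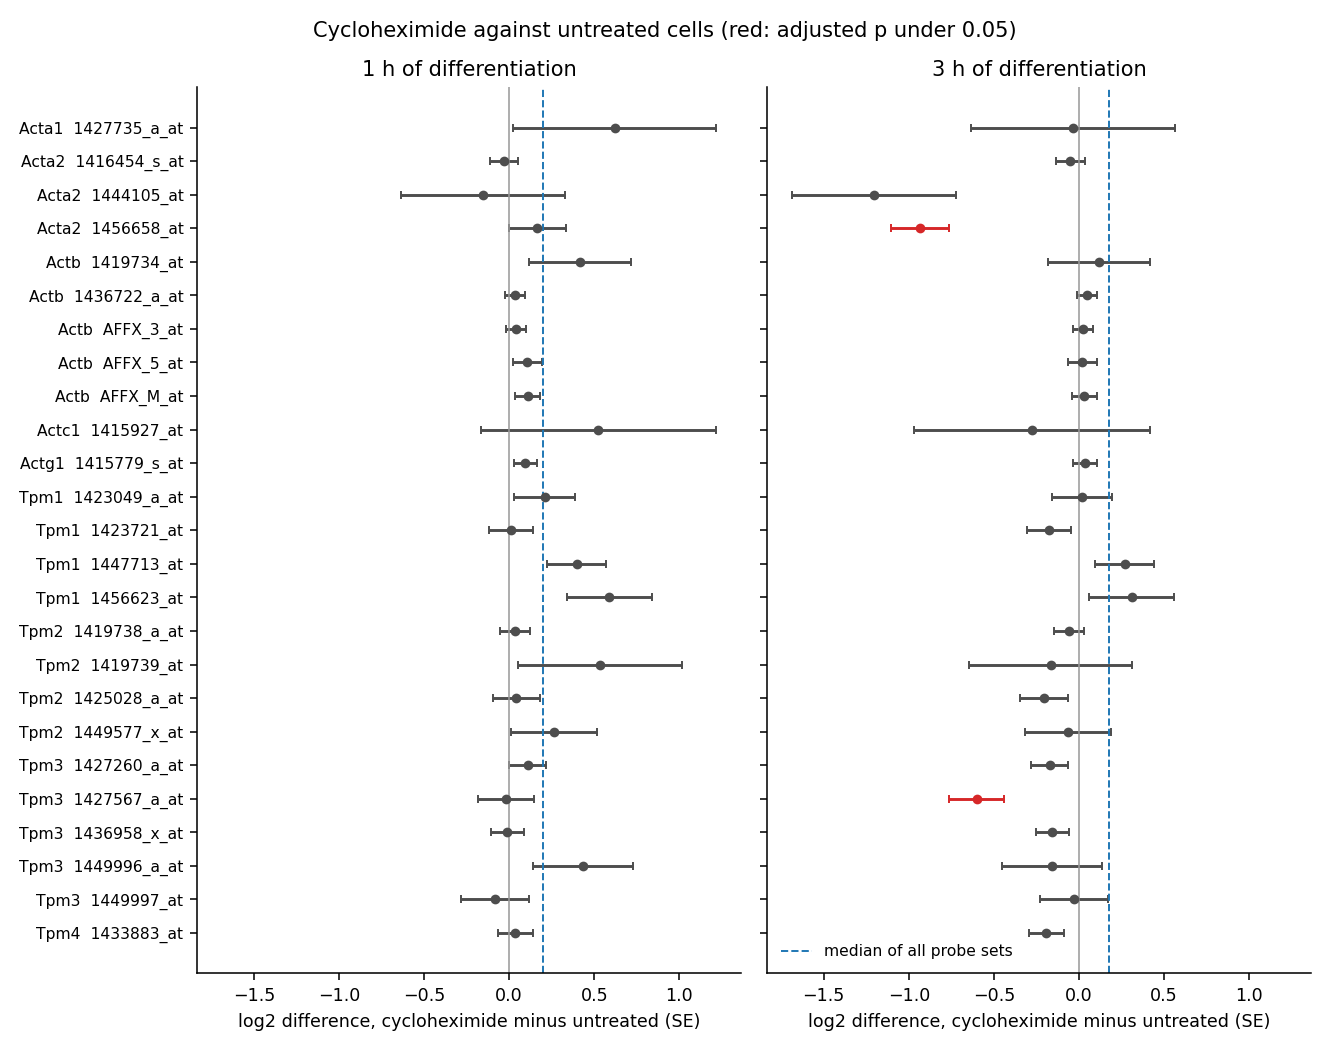
Difference in log2 level, cycloheximide minus untreated, for the 25 member probe sets at 1 h and 3 h, with the standard error of limma's fit as bars. Red marks an adjusted p under 0.05, and the dashed blue line is the median of all probe sets, 0.20 at 1 h and 0.17 at 3 h. The red points are Acta2 1456658_at (-0.94) and Tpm3 1427567_a_at (-0.60) at 3 h; the small positive Actb and Actg1 values turn negative when arrays are centred on their medians.

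The genes most like each member were found by Pearson's r over the 16 group means, among the 4561 genes whose group means varied by an SD of at least 0.3. These r values describe groups that share cells, passages and arrays. Acta1 was most like Tnnc2 (0.998), fast troponin C, Mymk (0.997) and Mymx (0.996), the myoblast fusion proteins. Actc1 was most like Mylpf (0.997), Stac3 (0.990) and Myl1 (0.990), and the Tpm1 lead was most like Lmod3 (0.988), Tnnt3 (0.987) and Aif1l (0.987). Tpm4 was most like Lhfp (0.974), Gnai1 (0.967) and Atl3 (0.960), Actg1 like Csgalnact1 (0.960), F3 (0.957) and Ocrl (0.956), and the Tpm3 lead like Nuf2 (0.969), Rfc3 (0.968) and Ctse (0.967). For Acta2, Actb and Tpm2 the group means varied by an SD of only 0.11, 0.06 and 0.11, as they did for Actg1 (0.11). The nearest genes of Acta2, Actb and Tpm2 were Ccdc141 (0.883), Lox (0.941) and Ntn1 (0.883). The Tpm3 probe set 1449996_a_at, looked up after its values were seen, was most like Tspan13 (0.989), Hspb7 (0.989) and Spink4 (0.988), and the Tpm2 probe set 1449577_x_at, chosen in the same way, was most like Rab40b (0.991), Cryab (0.989) and Cilp (0.984).

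Of the other genes of these filaments, the thin filament partners of muscle rose and the genes of actin turnover and stress fibres fell more often than they rose. At 144 h against 0 h, 16 of 20 measured partners (troponins, tropomodulins, leiomodins and nebulin-like proteins) were higher and 1 lower, with a median of 3.68, where 13.1% of all genes were higher and 14.5% lower. The largest were Tnnt3 (6.30), fast troponin T, Tnni2 (5.93), fast troponin I, and the filament nucleators Lmod2 (5.38) and Lmod3 (5.37). The 1 lower gene, Tmod3, which caps filaments in non-muscle cells, differed by -1.09 and is named after its value was seen. At 24 h 14 of the 20 were already higher and 1 was lower, where 6.14% of all genes were higher and 7.05% lower.

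Among genes of actin turnover and nucleation, 4 of 27 measured were higher at 144 h and 14 lower, with a median of -0.36; after housekeeping centring 6 were higher and 11 lower, where 41.4% of all genes were higher and 9.18% lower. Cap2, a cyclase-associated protein of striated muscle, was higher by 4.89, Diaph3, a formin, was lower by 2.08, Twf2 was higher by 1.06 and Evl lower by 0.89. Among stress fibre and actin-binding genes, 3 of 24 were higher and 13 lower, with a median of -0.35 and with 4 and 9 after that centring. The largest differences there were those of Myh10 (-1.63), a non-muscle myosin, Pdlim7 (1.62), Tagln (1.19) and Pdlim5 (-1.16). Of serum response factor and its coactivators, 1 of 5 was higher and 2 lower at 144 h: Abra (1.99), an actin-binding activator of the factor in striated muscle, Srf itself (-0.57) and Mrtfb (-0.27). After housekeeping centring the count for this list was 2 higher and 1 lower. Its median moved from -0.27 to -0.04, so a fall as small as that of Mrtfb depends on the scale.

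With cycloheximide at 3 h, 3 of 20 thin filament partners, 3 of 27 turnover genes, 5 of 24 stress fibre genes and 2 of 5 of the serum response factor list were higher, and 0, 3, 1 and 0 were lower, where 30.5% of all genes were higher and 3.37% lower. Mrtfa, a coactivator that binds unpolymerised actin, had the largest difference of these lists (1.55, adjusted p = 5.72e-06). After centring on the array median the 4 lists had 1, 0, 1 and 1 higher and 0, 11, 4 and 0 lower, where 12.2% of all genes were higher and 16.6% lower.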

How the data were processed

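The 48 arrays gave 45101 probe sets each. The deposited values are log2 intensities that the authors made with RMA, per the submitters' processing notes; the version, and whether all arrays were processed in 1 run, are not given in the sources used here. Probe sets were named from the platform annotation: 34958 with exactly 1 gene symbol were tested, 932 with several and 9211 with none were left out. No probe set was filtered for low signal.

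With limma 3.58.1 in R 4.3.3, the 16 group means were estimated jointly from the 48 arrays (32 residual degrees of freedom), after the procedure was tested on simulated data. Tests were two-sided, p-values were adjusted by Benjamini-Hochberg over all probe sets within a comparison, and an adjusted p under 0.05 is a call. Descriptions and figures were made in Python 3.11.15. Depth has no meaning for arrays; the number of arrays limits the precision, and within-group correlations of 0.982 to 0.996 and 0 identical pairs of arrays were found.

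All member probe sets are reported; the lead probe set of a gene has its highest mean over all arrays, the 3 most similar genes are named per member, and up to 4 called genes of largest change are named per list. The lists are thin filament partners, actin turnover and nucleation, stress fibre and actin-binding genes, and serum response factor with its coactivators, beside markers of cell types and 9 housekeeping genes used only for scaling. Members and lists were chosen with earlier results of these data known. Alternatives were the replicate block, other scalings, other probe set choices, other settings of the spread, and each array left out in turn.

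The replicate numbers come from the labels, whose design text ties replicates to successive passages. Deviations from group means correlated at a median of 0.297 between same-numbered arrays of other groups (over 0.1 in 298 of 360 pairs). Between other numbers the median was -0.155. Deviations within a group cancel out, so this negative value follows from the first and is no separate evidence of pairing. Every pair exceeded 0.1, so that the numbers were taken to pair the arrays, for 0.5, 1.5, 3, 6, 9, 12, 24, 48 and 96 h against 0 h, the steps up to 96 h, and cycloheximide at 3 h; for the others they were not.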

Additional observations from a re-analysis of the deposited data

Results flagged for a closer look

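The cycloheximide effect on the dim Acta2 probe set 1456658_at differed between the 2 times by the test of the difference itself: 3 h minus 1 h was -1.10 (SE 0.24, limma, adjusted p = 0.004). At 3 h the drug arrays were lower by 0.94 on average without overlap, with readings below the array medians that may be background. At 1 h the difference of 0.17 was not called, the groups overlapped, and it turned negative under the other 3 scalings. The result was not called when dim probe sets were left out, because this probe set is then not tested, or when only the arrays compared were fitted.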

How the results depend on the processing

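Of 525 values (25 probe sets in 21 comparisons), direction and call were kept in 471 with the replicate block, where the other 54 gained a call and 0 lost one. They were kept in 499 under housekeeping centring, 496 under array-median centring and 514 after a second quantile normalization. Of 3300 values with 1 array left out, 3214 kept both, 70 lost a call and 16 gained one. Housekeeping centring turned Actg1 (0.066), the Actb lead (0.17) and the Actb 3′ and middle control probe sets (0.16 and 0.057) positive at 144 h against -24 h. Array-median centring turned the Actb lead and 3′ control at cycloheximide 1 h (both -0.22), and at 3 h Actg1 (-0.24), the Actb lead (-0.23) and the 3′, 5′ and middle controls (-0.26, -0.26 and -0.25) negative. Shares over all probe sets were not taken for every setting below, so the counts show dependence on the setting and no trait of the members. The number of members called moved by over 1.5 times as follows. With 1 probe set per gene, so that genes were counted, 0.5, 24, 48, 96 and 144 h against 0 h had 0, 6, 5, 6 and 6, and there were 8 for 144 h against -24 h, 0 for each of the 4 late steps, for cycloheximide at 3 h and for its difference between times, and 7 in the F-test. Array-median centring gave 1 at 12 h and, for cycloheximide, 3 at 1 h and 15 at 3 h. Housekeeping centring gave 1 at 9 h. At 12 h there was 1 with a trended and robust prior, without _x_at and _s_at probe sets, with only the arrays compared and with quantile normalization, which gave 4 for cycloheximide at 3 h. Without dim probe sets there were 0 at 0.5 h, 1 at 48 h against 24 h and 0 for the cycloheximide difference; with only the arrays compared there were 2 at 24 h against 12 h, and 0 at 96 h against 48 h, at 144 h against 96 h and for the cycloheximide difference. The replicate block gave 7 for 0 h against -24 h, 1 each for 1.5, 2 and 3 h, then 5, 8 and 5 for 6, 9 and 12 h, 5 each for 24 h against 12 h and 48 h against 24 h, 2 for 144 h against 96 h, 3 and 4 for cycloheximide at 1 h and 3 h and 3 for their difference. Where the numbers do not pair the arrays (0 h against -24 h, 2 h, 144 h against 96 h, cycloheximide at 1 h), these blocked counts describe shared numbers only. The cycloheximide difference includes that 1 h comparison, so the same holds for its blocked count. The block was fitted over all 48 arrays, groups that do not pair included. It called more of all probe sets too: 1.62% at 6 h and 2.76% at 9 h, against 0.352% and 0.875% without it. The block with quantile normalization, chosen after seeing the data, gave 7, then 1 each, 6, 8, 6, 5, 4, 2, 1, 6 and 2 in the order of the blocked counts. Leaving out 1 array gave 0 to 1 for 9 h, 0 to 2 for 12 h, 0 to 1 for 24 h against 12 h, 1 to 2 for 48 h against 24 h, 0 to 2 for 144 h against 96 h and 0 to 1 for cycloheximide at 1 h. The causes were not tested, apart from fewer probe sets or arrays where the setting itself removes them. Precision is limited by 3 arrays a group, most for Acta1 and Actc1, whose 0 h arrays had SDs of 0.91 and 1.28.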
